A study of Mus musculus with 2 samples.

Results

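The 9 genes described here encode basic helix-loop-helix (bHLH) transcription factors that drive the birth and maturation of neurons, measured in embryonic mouse midbrain. They are the proneural genes Neurog1, Neurog2, Atoh1 and Ptf1a and the neuronal differentiation genes Neurod1, Neurod4, Neurod6, Nhlh1 and Nhlh2. Members were chosen by gene symbol in the M21 gene tables, and 9 of 9 symbols were found among 55536 annotated genes, 22028 of them protein-coding. The rule itself uses no measured value. The series holds polyadenylated RNA of midbrain tissue from B6NCrl mouse embryos of both sexes, pooled, at 12.5 days of gestation. Replicate 1 came from 120 embryos and replicate 2 from 88, each library was made from 10 ng of RNA, and both carry ERCC spike-in RNA. There is 1 group of 2 libraries and no treatment, genotype or second tissue. Differences described here are therefore between 2 pools of one tissue and carry no p-value.

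A bHLH factor binds DNA as a dimer, usually with a ubiquitous E protein, at a short motif called the E-box, whose letters are CANNTG. Proneural factors are made for a short time in dividing or newly exiting progenitors, where they raise Notch ligands in the same cell and switch on neuronal genes; Notch signalling in the neighbouring cells then raises Hes repressors that keep the proneural genes down. Neurod and Nhlh factors act later in the same sequence, in newborn neurons. In the midbrain Neurog2 is known for its part in the birth of dopaminergic neurons, Atoh1 and Ptf1a are better known from the rhombic lip and the cerebellar ventricular zone, and Neurod6 from cortical neurons and a subset of dopaminergic neurons.

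Sequence upstream of the start site is shown for the members whose levels are set against each other below: the Neurog pair, which differed in behaviour between the libraries, the Nhlh pair, which differed more than 10-fold in level, and Neurod6. RefSeq gives these sequences on build GRCm38.p6, and all 9 members matched its promoter table, with 10 windows because Neurod4 has 2. Each is printed 5′ to 3′ on the strand of the gene and stops before the first annotated transcribed base in RefSeq or GENCODE M21. Capitals mark every CANNTG.
Neurog1, chr13:56252181-56252430, minus strand: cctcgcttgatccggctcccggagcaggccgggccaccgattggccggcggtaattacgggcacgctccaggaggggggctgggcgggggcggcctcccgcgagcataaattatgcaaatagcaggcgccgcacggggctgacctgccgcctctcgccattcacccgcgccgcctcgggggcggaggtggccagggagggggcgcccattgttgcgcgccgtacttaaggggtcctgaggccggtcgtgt
Neurog2, chr3:127632886-127633134, plus strand: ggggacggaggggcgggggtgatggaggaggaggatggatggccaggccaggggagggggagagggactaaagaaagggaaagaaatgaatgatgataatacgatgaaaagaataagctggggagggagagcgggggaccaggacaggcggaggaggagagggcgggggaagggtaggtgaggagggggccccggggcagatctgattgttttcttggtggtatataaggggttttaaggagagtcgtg
Nhlh1, chr1:172057597-172057846, minus strand: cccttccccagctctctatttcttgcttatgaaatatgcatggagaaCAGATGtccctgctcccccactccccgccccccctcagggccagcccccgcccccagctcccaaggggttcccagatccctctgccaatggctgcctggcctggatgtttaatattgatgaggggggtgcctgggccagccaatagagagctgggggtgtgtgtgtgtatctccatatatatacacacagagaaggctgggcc
Nhlh2, chr3:102009895-102010075, plus strand: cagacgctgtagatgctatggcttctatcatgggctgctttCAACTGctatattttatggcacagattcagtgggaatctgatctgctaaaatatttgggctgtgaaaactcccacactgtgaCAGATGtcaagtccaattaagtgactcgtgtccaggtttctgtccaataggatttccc
Neurod6, chr6:55681264-55681513, minus strand: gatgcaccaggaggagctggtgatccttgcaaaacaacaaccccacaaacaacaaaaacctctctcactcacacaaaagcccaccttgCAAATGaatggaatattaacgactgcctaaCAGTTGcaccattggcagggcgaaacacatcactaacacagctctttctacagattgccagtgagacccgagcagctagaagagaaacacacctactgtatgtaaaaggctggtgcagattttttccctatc

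An E-box was present upstream of 4 of the 9 members and absent from the others. The upstream windows of Neurog1, Neurog2, Atoh1, Ptf1a and Neurod4 held no CANNTG, while 66.2% of all 32851 RefSeq windows of 250 bases did. Neurod6 had 2 in its 250 bases, at -162 and -132 counted from the window's end. Nhlh1 had 1 and Nhlh2 had 2 in the 181 bases that lie before its first annotated start, a length at which 55.7% of windows hold one. Both Nhlh windows carried the form CAGATG, counted on both strands, which stood in 14.4% of windows of 250 bases and 10.9% of windows of 181. In Neurod1 the 135 bases before its start held 1 E-box, against 45.6% of windows of that length. That window overlaps annotated exon sequence of another gene, Cerkl. The palindrome CAGCTG, itself a CANNTG, was found upstream of 0 of the 9, and 13% of windows of 250 bases hold it. CCAAT, searched on both strands, stood upstream of 6 of the 9, Neurog1, Atoh1, Ptf1a, Neurod6, Nhlh1 and Nhlh2. Its share was 33.8% over all windows of 250 bases. At the shorter lengths it was 25.2% for 181 bases, as in Nhlh2, and 18.2% for 135, as in Neurod1. Such matches describe letters in a short window and say nothing about binding.

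A pair of genes carried most of the summed level. Levels ran from 0.34 (Ptf1a, 9 counts) to 118.74 TPM (Neurog2) in replicate 1 and from 1.05 (Neurod6) to 99.81 TPM (Nhlh2) in replicate 2. TPM is a level corrected for transcript length and library total, and intervals are exact Poisson limits at 95% that cover counting error only. Nhlh2 and Neurog2 together made up 71.1% of the summed TPM of the 9 genes in replicate 1 and 65.5% in replicate 2. At a limit of 1 TPM in both libraries, 7 of the 9 were detected, against 59.4% of protein-coding genes and 28.1% of all annotated genes. The median of the 9 was 11.3 TPM in replicate 1 and 9.12 in replicate 2, beside medians of 4.32 and 4.57 over all protein-coding genes. In bulk tissue, fewer cells of a type and less RNA per cell cannot be told apart.

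**Figure D1:**
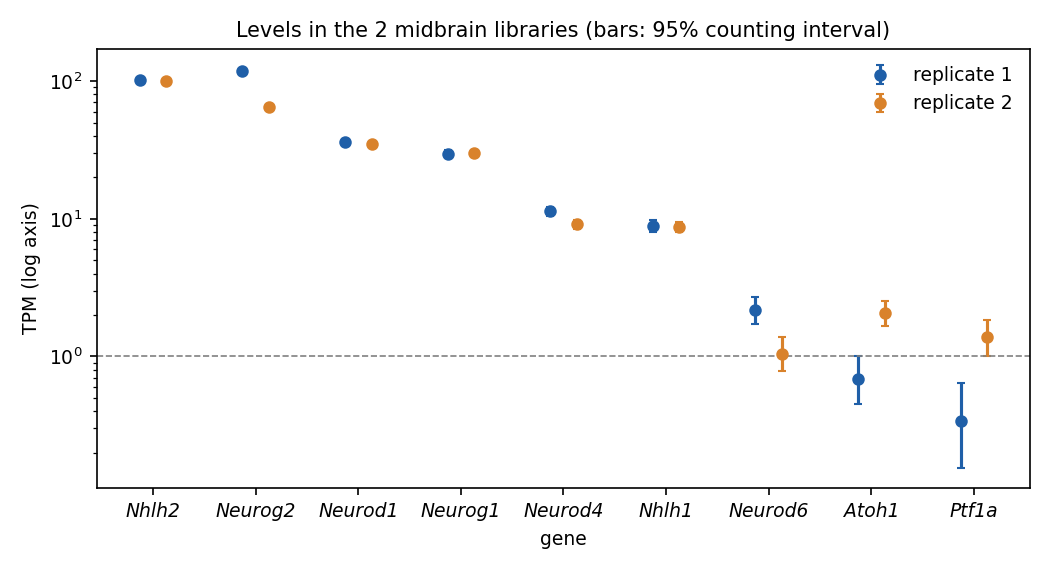
Level of each gene in TPM on a log axis, 1 point per library, with 95% Poisson counting intervals as bars and a dashed line at 1 TPM. Nhlh2 and Neurog2 stand highest, Neurog2 is the abundant gene whose points separate, and Atoh1 and Ptf1a lie below the line in replicate 1 and above it in replicate 2.

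The 2 Neurogenin genes are the proneural factors made in the largest amount. Neurog2, which starts neuronal differentiation in progenitors (ENSMUSG00000027967.8, chromosome 3, 127633135 to 127635631, plus strand, 2 exons, coding sequence in 1), stood at 118.74 TPM in replicate 1 and 65.10 in replicate 2, from 4718 and 3266 expected counts. That is 91.9 ± 37.9 TPM (SD, n = 2), and the counting intervals, 115 to 122 and 62.9 to 67.4, did not overlap. In replicate 1 the gene lay above 94% of protein-coding genes, and in replicate 2 above 87.6%. Neurog1, its close relative (ENSMUSG00000048904.5, chromosome 13, 56250478 to 56252163, minus strand, a single exon), stood at 29.66 and 29.80 TPM, or 29.7 ± 0.099 (SD, n = 2). Its 2 libraries were thus almost equal where those of Neurog2 were not.

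Atoh1 and Ptf1a were near the limit of detection. Atoh1, the determinant of cerebellar granule neurons and other rhombic lip derivatives (ENSMUSG00000073043.5, chromosome 6, 64729125 to 64731245, plus strand, a single exon), had 26 counts and 0.69 TPM in replicate 1 and 98 counts and 2.06 TPM in replicate 2. The intervals were 0.451 to 1.01 and 1.67 to 2.51 TPM. Ptf1a, which directs inhibitory neuron fate in the cerebellum and dorsal hindbrain (ENSMUSG00000026735.2, chromosome 2, 19445663 to 19447501, plus strand, 2 coding exons), had 9 counts and 0.34 TPM against 46 counts and 1.38 TPM. Its intervals were 0.155 to 0.645 and 1.01 to 1.84. A count of 0 would still have allowed 0.113 TPM of Ptf1a in replicate 1 and 0.0900 in replicate 2, so the gene was above that floor in both libraries. For each of the 2 genes replicate 2 was the higher library and the intervals did not overlap.

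Among the Neurod genes, levels fell from Neurod1 to Neurod6. Neurod1, which acts in young neurons (ENSMUSG00000034701.9, chromosome 2, 79452521 to 79456751, minus strand, 2 exons), stood at 36.34 and 34.83 TPM, 35.6 ± 1.07 (SD, n = 2). Neurod4, also called Math3, a cooperating differentiation factor (ENSMUSG00000048015.4, chromosome 10, 130268152 to 130280240, minus strand, 2 exons), stood at 11.30 and 9.12 TPM, 10.2 ± 1.54. Neurod6, a late factor of maturing neurons (ENSMUSG00000037984.9, chromosome 6, 55677822 to 55681263, minus strand, 2 exons), stood at 2.17 and 1.05 TPM, from 83 and 51 counts. The replicates of Neurod1 lay close together, whereas those of Neurod6 differed by about the level of the lower one. Neurod2, a relative outside the 9 that belongs with Neurod6 in cortical neurons, was at a similar level, 1.74 and 0.98 TPM.

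The Nhlh genes, also called Nscl1 and Nscl2, mark neurons soon after cell cycle exit. Nhlh2 (ENSMUSG00000048540.8, chromosome 3, 102010076 to 102015492, plus strand) was the highest of the 9 by mean, at 100.98 and 99.81 TPM, 100.4 ± 0.827 (SD, n = 2). Nhlh1 (ENSMUSG00000051251.3, chromosome 1, 172052292 to 172057573, minus strand, 2 exons) stood at 8.81 and 8.73 TPM, 8.77 ± 0.0566. For both genes the libraries differed by less than counting error or at its edge, although the genes themselves differed more than 10-fold in each library.

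The order of the means was Nhlh2, Neurog2, Neurod1, Neurog1, Neurod4, Nhlh1, Neurod6, Atoh1 and Ptf1a. Ranges over the 2 libraries overlapped for 3 of the 8 neighbouring pairs: Nhlh2 with Neurog2, Neurod6 with Atoh1, and Atoh1 with Ptf1a. In replicate 1 Neurog2 was above Nhlh2, at 118.74 against 100.98 TPM, and in replicate 2 it was below, at 65.10 against 99.81. Neurod6 was 3.14 times Atoh1 in replicate 1 and 0.51 times in replicate 2. The other 5 neighbouring pairs kept their order in both libraries without overlap, the closest being Neurod4 over Nhlh1, 1.28 and 1.04 times.

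Between the libraries, 4 of the 9 genes differed by 1.5-fold or more and the other 5 by 1.26-fold or less. Ratios are log2 of replicate 1 over replicate 2, from expected counts with TMM scaling (which sets the bulk of genes equal), with an exact conditional binomial interval at 95% for counting error. A gene was called where its ratio reached the stated fold and the interval excluded equality. All 9 genes had at least 10 counts in a library. Neurog2 and Neurod6 were higher in replicate 1, and Atoh1 and Ptf1a in replicate 2. Of all 19885 genes with that many counts, 7.19% were called at 1.5-fold, 2.83% higher in replicate 1 and 4.36% higher in replicate 2. At 2-fold, 3 of the 9 were called: Neurod6 in replicate 1, against 1.78% of all genes, and Atoh1 and Ptf1a in replicate 2, against 2.45%. In either direction 4.23% of all genes were called at 2-fold. The median log2 ratio of the 9 was 0.05, beside -0.01 over all genes.

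**Figure D2:**
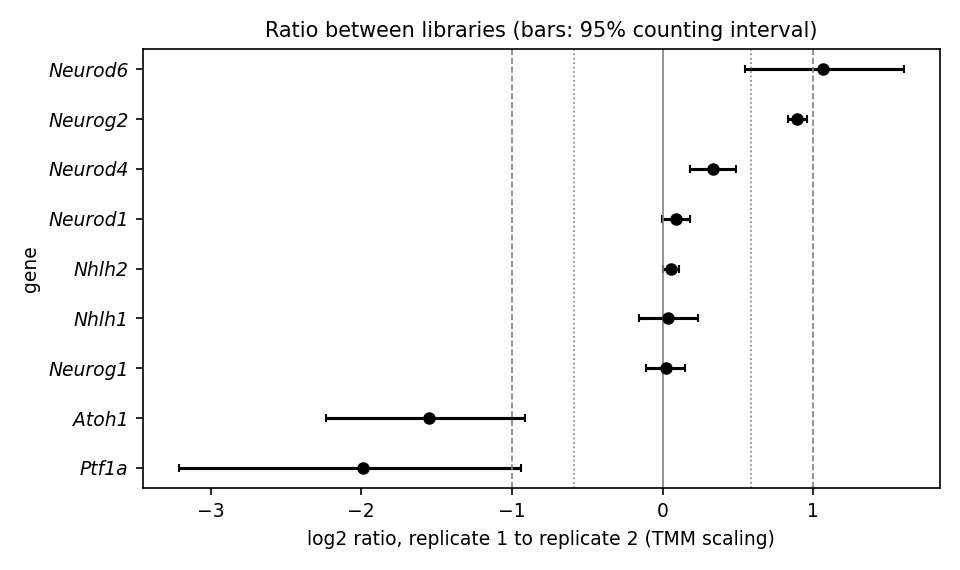
Log2 ratio of replicate 1 to replicate 2 for each gene, with 95% counting intervals as bars. The solid line marks equality, the dotted lines 1.5-fold and the dashed lines 2-fold. Neurod6 and Neurog2 lie to the right, Atoh1 and Ptf1a to the left with wide intervals, and Neurog1, Nhlh1, Nhlh2 and Neurod1 lie at or close to equality.

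Neurog2 had the best determined of these differences, a log2 ratio of 0.89 with an interval of 0.83 to 0.96, or 1.86-fold. Few genes of its abundance were called: of 7242 genes whose larger count lay between 1000 and 10000, 13 (0.18%) were called at 1.5-fold higher in replicate 1 and 35 (0.483%) higher in replicate 2. The low-count members have another background, since of 5643 genes with a larger count between 20 and 200, 5.3% were called at 2-fold higher in replicate 2 and 3.42% higher in replicate 1. At 1.5-fold these shares were 9.75% and 6.52%. Neurod6 had a ratio of 1.07 (0.55 to 1.60), Atoh1 of -1.55 (-2.23 to -0.91) and Ptf1a of -1.99 (-3.21 to -0.94). For these 3 the sign is fixed beyond counting error and the size is not. Neurod4 was 1.26-fold higher in replicate 1, at 0.34 (0.18 to 0.49). The ratios were 0.02 (-0.11 to 0.15) for Neurog1, 0.09 (0.00 to 0.18) for Neurod1, 0.04 (-0.16 to 0.23) for Nhlh1 and 0.05 (0.00 to 0.11) for Nhlh2. With ERCC spike-in totals as the scale the median of all genes moved to -0.28 and the ratios of Neurog1, Neurod1, Nhlh1 and Nhlh2 were then below equality, so each ratio is relative to the bulk of genes. The calls of Neurog2, Neurod6, Atoh1 and Ptf1a at 1.5-fold stood on that scale too.

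Ratios of one member to another within a library do not depend on that scale, and 5 pairs were compared. Neurog2 was 4.00 times Neurog1 in replicate 1 and 2.18 times in replicate 2, by TPM. The ratio in replicate 1 was 1.83 times that in replicate 2, with an exact conditional interval of 1.66 to 2.03 for counting error, so the sister genes did not keep their proportion. Nhlh2 was 11.5 times Nhlh1 in replicate 1 and 11.4 times in replicate 2, and the change between libraries was 1.01 with an interval of 0.877 to 1.16. Neurod1 was 3.22 and 3.82 times Neurod4, a change of 0.842 (0.743 to 0.953). It was 16.7 and 33.2 times Neurod6, a change of 0.508 (0.349 to 0.732). Atoh1 was 2.03 and 1.49 times Ptf1a, and with so few counts the change of 1.35 had an interval from 0.558 to 3.56. With Neurog2 left out, the other 8 summed to 190.3 TPM in replicate 1 and 186.8 in replicate 2.

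Transcript tables gave a single transcript, hence all of the level, for each gene except Nhlh2. Nhlh2-202, with 3 exons and 2647 bases, carried 83.89 TPM in replicate 1 and 84.22 in replicate 2, or 83.7% ± 0.919 (SD, n = 2) of the gene. It starts at 102010076 on chromosome 3, the earliest of the annotated starts, and its first 2 exons are untranslated. Nhlh2-201 carried 7.46 and 7.88 TPM, and Nhlh2-203 9.63 and 7.71. Nhlh2-201 keeps the first intron (102010326 to 102010734) and Nhlh2-203 the second (102011060 to 102012645) within an exon. All 3 share the same coding sequence of 405 bases in 1 exon, 102012654 to 102013058, so the split concerns untranslated sequence only. Reads shared by the 3 are divided by a model in such estimates.

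**Figure D3:**
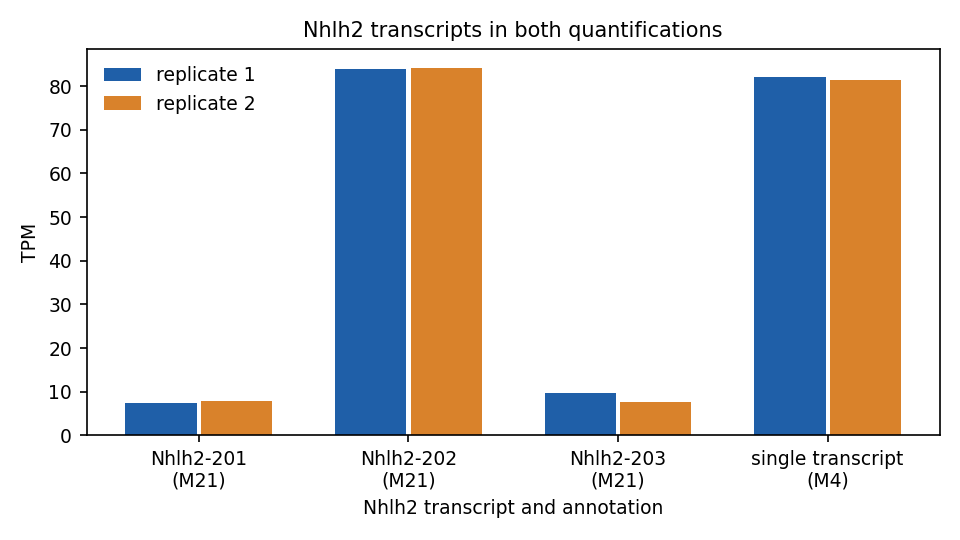
TPM of the 3 Nhlh2 transcripts of annotation M21 and of the single transcript of M4, with 1 bar per library. Nhlh2-202 stands near 84 TPM in both libraries, the other two M21 transcripts lie between 7.46 and 9.63, and the M4 transcript stands at 82.17 and 81.49.

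Among the 9, the choice of annotation changed the level of Nhlh2 most. In the older M4 tables it has 1 transcript of 3353 bases and stood at 82.17 and 81.49 TPM, 0.814 and 0.816 times the M21 level. M21 assigned it 1.1 and 1.08 times as many counts as M4. For the other 8 the M4 level was 1.05 to 1.07 times the M21 level in both libraries. Neurog2 (96.8 TPM by mean) then stood above Nhlh2 (81.8), and the remaining order was kept. Overlapping genes were few. Ptf1aos, antisense to Ptf1a over 1012 bases, had 0 counts in both libraries. Gm26755, on the opposite strand from Neurod1, had 3 and 9 counts. Cerkl, on the same strand and containing all of Neurod1, had 36 and 40 counts against 1784 and 2160 for Neurod1. Nothing used here states the strand setting of the counting, so reads of opposite-strand genes cannot be told apart with certainty.

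The partners of these factors were abundant. All 3 E protein genes, whose products dimerise with the proneural factors, were detected: Tcf12 at 162 ± 21.8 TPM, Tcf3 at 146 ± 0.573 and Tcf4 at 105 ± 0.820 (SD, n = 2). None of the 3 reached 1.5-fold, with TMM or ERCC scaling. All 9 genes of the Id and Hes/Hey list, which block bHLH activity or repress proneural genes, were detected. Their median was 52.1 TPM, from Hey2 at 3.20 ± 0.544 to the Notch target Hes5 at 647 ± 50.6. None of these 9 was called at 1.5-fold with TMM scaling, beside the same 7.19% of all genes. Their median log2 ratio was -0.14. With ERCC scaling Hes3, Hey1 and Hey2 were called higher in replicate 2. Each E protein gene exceeded Neurog1, Neurod1, Neurod4 and Nhlh1 in level in both libraries.

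Genes known to be driven by proneural factors differed less between the libraries than Neurog2 did. All 16 on that list were detected. Their median was 67.0 TPM, from Insm1, a factor of newborn neurons, at 9.70 ± 0.141 to Hes6, a Hes antagonist, at 344 ± 19.0. None of the 16 was called at 1.5-fold with TMM or ERCC scaling, and the median log2 ratio was 0.05 with the first and -0.22 with the second. The Notch ligand gene Dll1 stood at 64.45 and 65.48 TPM, a ratio of -0.01 (-0.07 to 0.05), and Dll3 at 66.27 and 71.66, a ratio of -0.06 (-0.12 to 0.01). Rnd2, a small GTPase gene known downstream of Neurog2 in migrating cortical neurons, stood at 70.52 and 70.13 TPM, a ratio of 0.04 (-0.05 to 0.13). Dcx, a microtubule protein gene of migrating neurons, had a ratio of 0.11 (0.08 to 0.14), and Elavl4, an RNA-binding protein gene of neurons, of 0.25 (0.20 to 0.30). The 1.86-fold difference in Neurog2 stood beside differences under 1.5-fold in every gene of this list. Most of the 16 had a larger count between 1000 and 10000. In that range 0.18% of genes were called higher in replicate 1 and 0.483% higher in replicate 2. A lack of calls is therefore not particular to this list.

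Other neural bHLH genes varied more. Of 14 on that list 11 were detected, and 5 of the 13 with enough counts were called at 1.5-fold with TMM scaling. Over all genes with at least 10 counts that share was 7.19%. With ERCC scaling 8 of the 13 were called, the added ones Atoh8, Bhlhe22 and Helt in replicate 2. Olig3, known from dorsal progenitors of the neural tube, had the highest ratio, with 49.97 TPM in replicate 1 against 8.71 in replicate 2 and a ratio of 2.55 (2.39 to 2.71). Olig1 (1.10), Olig2 (0.92) and Neurod2 (0.86) were also higher in replicate 1, and Ferd3l, a floor plate factor, in replicate 2 (-1.61, from 16 and 63 counts). Neurog3, a relative known from the endocrine pancreas, was the lowest with 5 and 1 counts.

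**Figure D4:**
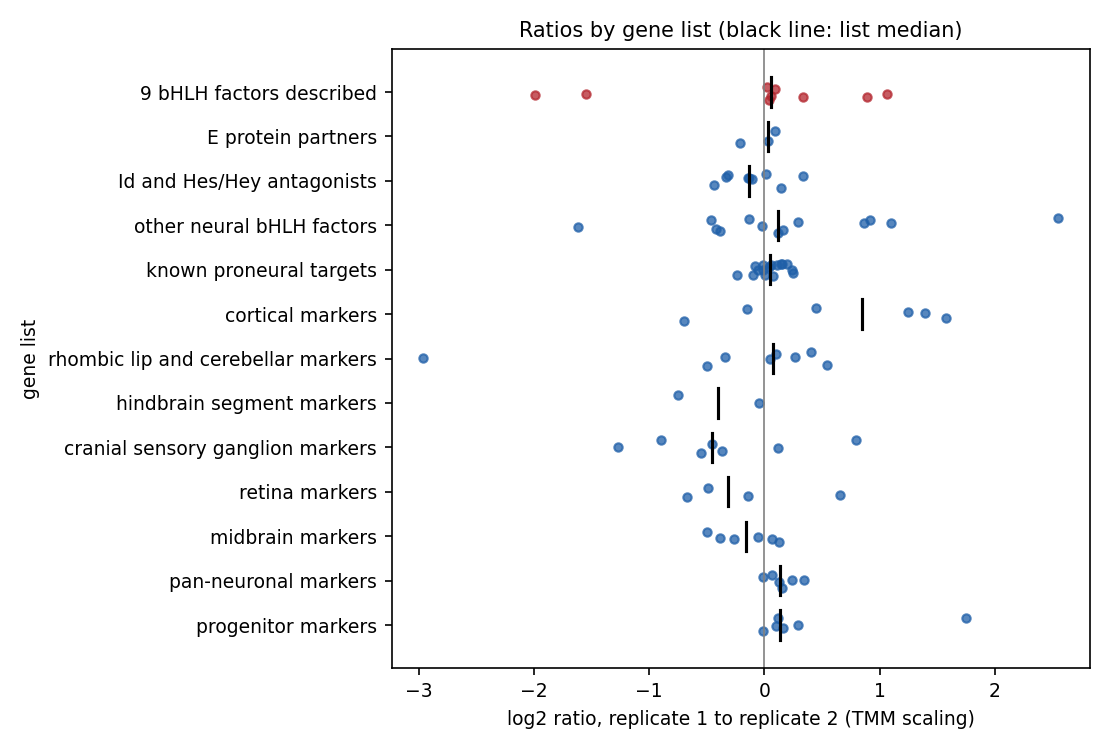
Log2 ratio of replicate 1 to replicate 2 for each gene with at least 10 counts in a library, by gene list, with list medians as black lines. With TMM scaling the E protein, antagonist and target lists lie within 0.5 of equality, while the 9 bHLH factors run from -1.99 to 1.07 and the cortical markers have a median of 0.85.

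Markers of neighbouring tissue also differed between the libraries, and their part in the ratios above was not tested. Of 6 cortical markers 4 were detected and none was at 0. Their summed level was 32.7 TPM in replicate 1 and 22.9 in replicate 2. Emx1 (1.25), Tbr1 (1.39) and Eomes (1.58) were higher in replicate 1, the direction of Neurog2 and Neurod6. Of all 6, 3 were called at 1.5-fold higher in replicate 1 and 1 higher in replicate 2. Among 6 progenitor markers the single one past 1.5-fold was Pax6, at 57.16 against 16.88 TPM (1.75), and the 6 pan-neuronal markers all stayed under it. The 6 midbrain markers were all detected, summing to 249 and 252 TPM. None was called at 1.5-fold with TMM scaling, and En1 and Lmx1b were with ERCC scaling, higher in replicate 2. Over all genes with at least 10 counts, 7.19% were called at 1.5-fold with TMM scaling, the share to set beside these marker counts.

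For Atoh1 and Ptf1a the relevant neighbours are the rhombic lip and hindbrain. The 8 rhombic lip and cerebellar markers summed to 169 TPM in replicate 1 and 144 in replicate 2, and none was at 0 in both. Most of each sum came from Lhx9 (81.23 and 70.05 TPM), Barhl1 (36.22 and 25.51) and Gbx2 (29.92 and 23.27). Pax2 (0.25 in both), Skor2 (0.02 and 0.14) and En2 (1.14 and 1.64) added little. Which tissue these RNAs came from was not tested. The 8 markers moved in both directions, with intervals above equality for 3 and below it for 3. Higher in replicate 1 were Barhl1, which follows Atoh1 in granule cell precursors, at 0.54 (0.44 to 0.65), Gbx2 at 0.40 (0.27 to 0.53) and Lhx9 at 0.27 (0.21 to 0.32). Higher in replicate 2, as Atoh1 and Ptf1a were, stood Lmx1a, a roof plate factor, at -0.34 (-0.48 to -0.21), En2 at -0.50 (-0.93 to -0.08) and Skor2, a Purkinje cell gene, with 1 count against 10. Skor2 was the 1 marker called at 1.5-fold, and with ERCC scaling Lmx1a and En2 were called with it. Of 6 hindbrain segment markers 1 was detected, and the 6 summed to 7.15 and 7.35 TPM. Hoxa2 had 0 and 4 counts and Hoxb1 2 and 0. For Neurog1 and Neurod1, which also act in cranial sensory ganglia, 6 of 7 ganglion markers were detected with sums of 132 and 121 TPM. At 1.5-fold 2 were called higher in replicate 2, among them Sox10 (-1.27), and 1 in replicate 1, Isl1 (0.80); with ERCC scaling Isl1 was not called and 5 were called in replicate 2. Of 5 retina markers, with sums of 35.3 and 24.8 TPM, 2 were detected: Otx1, which is not specific to the retina, at 0.66 (not called with ERCC scaling), and Rax at -0.67. The parts of these tissues in the levels of the 9 genes were not tested.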

How the data were processed

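Polyadenylated RNA was measured in 2 midbrain libraries, 1 per pool of embryos. For each library the authors deposited gene and transcript tables on assembly mm10 against annotations M4 and M21, per the manifests beside the files. Per the file headers the tables hold the expected count (an estimated number of reads), TPM, FPKM and, by transcript, the percent of the gene's level. The deposited TPM sum to the full total only with the spike-ins. Aligner, quantifier and strand setting: not given in the sources used here. M21 was the main annotation. Gene counts totalled 29056772 in replicate 1 and 37122519 in replicate 2; rows that name no gene held 4.02% and 3.38% of the total count, nearly all of it in ERCC spike-ins, and were left out of library sizes.

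Levels are deposited TPM. Ratios used expected counts rounded to whole numbers, TMM scaling (edgeR 4.0.16, R 4.3.3) and intervals for counting error; no molecular identifiers are named, so these may be too narrow. The intervals and calls were first tested on simulated Poisson counts. Such counts hold no variation between pools, so that test checks the computation for counting error only. The labels number the libraries as biological replicates and do not tie the pools to litters. The members, the 12 related gene lists (92 genes) and the rule for naming genes (all members; of each list the extremes, those past 1.5-fold and close relatives) were chosen with earlier results of these data known. Backgrounds by count range and the upstream motifs were chosen after the values had been seen. With 2 libraries a pattern over samples is 1 ratio, so no gene of like pattern was named. Single values of some genes on the related lists are not reported here.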

Additional observations from a re-analysis of the deposited data

How the results depend on the processing

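No paired analysis was possible because the series has a single group. The summed TPM of the 9 genes, 280.5 by mean, and the counts detected and past 1.5-fold or 2-fold kept their size within 1.5 times under every alternative tried. Leaving out a replicate gave sums of 251.9 to 309 TPM and 7 to 9 detected. Scaled to ERCC totals, 4 ratios changed sign: Neurog1 to -0.25, Neurod1 to -0.18, Nhlh1 to -0.23 and Nhlh2 to -0.22; Neurod4 was then 0.07, within counting error, and Neurod6 0.80, under 2-fold. DESeq2 size factors, total counts and M4 tables changed no sign, and the interval of Nhlh2 then included equality with total counts (0.04) and M4 (0.04). Nhlh2 was 8.86 times Nhlh1 with M4 against 11.4. Depth limits Atoh1, Ptf1a and Neurod6, whose ratios rest on 9 to 98 counts a library, and 2 libraries of 1 group give no test across pools.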
